A study of Drosophila melanogaster with 6 samples.

Results

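The genes of chromosome 4, the small dot chromosome of Drosophila melanogaster, were compared between Tailor (CG1091) knockout cells and wild-type cells. Members were the genes whose listed locus lies on chromosome 4, leaving out RpS3A, eIF4G and ATPsyn-beta. This gave 82 of the 14210 listed genes, with spans from position 24053 to position 1275487 in the files' own coordinates (1-based, genome build not given in the sources used here). Poly(A)-selected RNA came from Schneider 2 (S2) cells, a hemocyte-like embryonic cell line. There were 3 libraries of S2 cells with the CG1091 knockout, made by CRISPR/Cas9, and 3 libraries of wild-type S2 cells. No treatment or time point is given, the labels do not say whether the knockout line is a single clone, and only the knockout libraries are described as biological replicates. Part of the spread behind the p-values below may thus be technical. Tailor is a uridylyltransferase that adds uridines to the 3′ ends of RNAs, and the question here is how the genes of 1 unusual chromosome stood when it was disrupted.

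Most of the gene-bearing arm of chromosome 4 is packaged with heterochromatin proteins, yet many of its genes are active. In flies the protein Pof binds these active genes along the chromosome, together with the heterochromatin protein HP1a and the histone methyltransferase Eggless (egg). Genes on it are long and rich in introns, and they include the regulators of Hedgehog and Wnt targets ci and pan, the eye selector genes ey and toy, and gw, which encodes a core protein of microRNA silencing.

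Levels are given in FPKM (fragments per kilobase of transcript, scaled to the fragments of the library), which allows levels of genes of different length to be set side by side. Genes that averaged 1 FPKM or more in the 6 libraries were tested with limma on log2(FPKM + 1). Log2 changes are knockout over wild type. They and the fold changes are on that scale, which understates changes of low genes. A gene is called where its p-value, adjusted over all 7259 tested genes by the Benjamini-Hochberg method, is under 0.05. The edited gene CG1091 stood at 22.3, 26.1 and 26.1 FPKM in knockout libraries, against 50.7, 51.2 and 47.7 FPKM in wild-type libraries (log2 change -0.98, limma adjusted p = 2.5e-07). Its span overlaps that of Dpck. Effective fragment numbers, worked out from the width of each value's confidence interval, came to between 18411809 and 22536308 per knockout library, against 20896005 to 22957816 per wild-type library. Of 9 hemocyte markers, 7 were tested, with 4 called higher and 1 lower (30.1% and 32.1% of all tested genes were), and summed levels were 960.8 to 1030 FPKM in knockout and 794.3 to 1063 FPKM in wild-type libraries. Among those called higher, He passed the filter only through its knockout level (mean 1.55 FPKM in knockout and 0.584 FPKM in wild-type cells). He rests on 18 to 24 effective fragments per knockout and 5 to 12 per wild-type library. The hemocyte factor srp stood at 65.7 to 68.5 FPKM in knockout and 52.8 to 64.2 FPKM in wild-type libraries, and the scavenger receptor gene crq at 257.5 to 266.3 FPKM in knockout and 217.8 to 229.7 FPKM in wild-type libraries. The matrix gene Ppn averaged 99.0 ± 3.07 FPKM in knockout and 56.5 ± 4.05 FPKM in wild-type cells, without overlap. Hml averaged 1.52 ± 0.154 FPKM in knockout and 0.398 ± 0.0189 FPKM in wild-type cells, without overlap. Pxn averaged 1.47 ± 0.175 FPKM in knockout and 3.12 ± 0.195 FPKM in wild-type cells, also without overlap. Of the 6 Ppn values, 3 carry a status other than OK, a flag given with each FPKM. The plasmatocyte receptor gene nimC1 was under 1 FPKM in every library. Summed levels of 6 neuron markers were 17.1 to 18.9 FPKM in knockout and 15.8 to 18.4 FPKM in wild-type libraries, mostly from elav and brp. The 5 muscle markers summed to 7.69 to 8.44 FPKM in knockout and 9.52 to 10.1 FPKM in wild-type libraries, mostly from Mef2, and the 4 germline markers to 3.69 to 4.58 FPKM in knockout and 3.02 to 3.38 FPKM in wild-type libraries, mostly from aub. The ovarian soma marker tj was listed at 0 in every library. The 4 fat body markers, of which 2 were listed at 0 in every library, summed to at most 0.0847 FPKM in knockout and 0.0813 FPKM in wild-type libraries. Transcripts of whole cultures were measured, so fewer expressing cells and less RNA per cell cannot be told apart.

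Libraries of 1 group differed in a way that chromosome 4 genes shared. Knockout replicate 2 was the lowest of its group for 36 of 50 tested members (72%), against 33.8% of all tested genes. Wild-type replicate 3 was the highest of its group for 41 of 50 tested members (82%), against 32.9% of all tested genes. Wild-type replicate 1 was the lowest of its group for 31 of 50 (62%), against 37.8% of all tested genes. Knockout replicate 3 was the highest of its group for 31 of 50 (62%), against 25.7% of all tested genes. The 33 tested genes of the heterochromatic scaffolds had 72.7% lowest in knockout replicate 2 and 66.7% highest in wild-type replicate 3. Of them, 39.4% were lowest in wild-type replicate 1 and 42.4% highest in knockout replicate 3. Among the 1365 tested genes with at least 4000 nt of exon, 72% were lowest in knockout replicate 2 and 31.1% were highest in wild-type replicate 3. In the same long genes, 56% were lowest in wild-type replicate 1 and 31.9% were highest in knockout replicate 3. As a class, long genes thus shared the low values of knockout replicate 2 and wild-type replicate 1, but not the high value of wild-type replicate 3. The part of transcript length in these deviations was not tested. Where leaving out a library changes a call of a member named below, this is said.

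**Figure D1:**
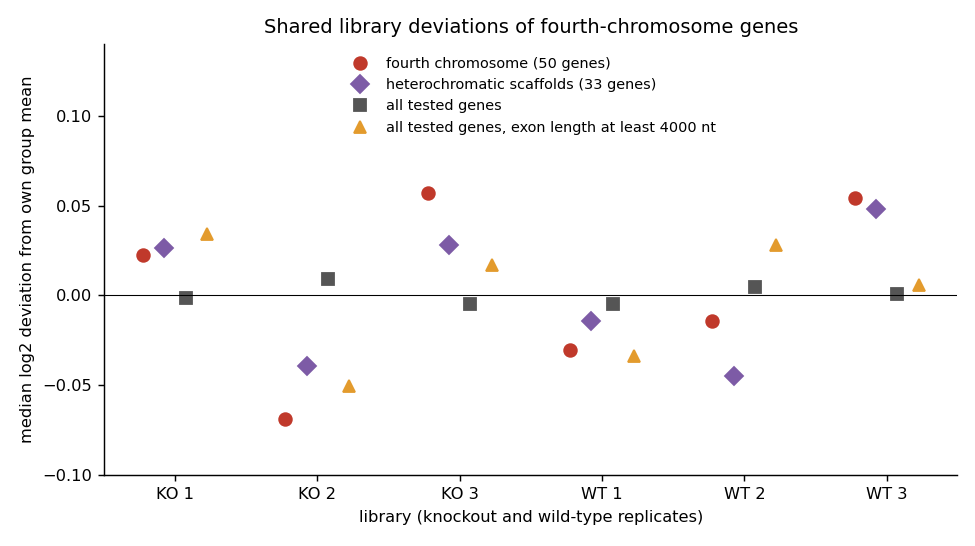
Median deviation of each library from the mean of its own group (log2(FPKM + 1) scale, y axis) for the 50 tested genes of chromosome 4, the 33 tested genes of heterochromatic scaffolds, all tested genes, and all tested genes with at least 4000 nt of exon. Chromosome 4 genes lie at -0.07 and 0.06 in knockout (KO) replicates 2 and 3. They lie at -0.03 and 0.05 in wild-type (WT) replicates 1 and 3. The median of all tested genes stays within 0.01 of 0.

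Chromosome 4 fell into an expressed and a near-silent set of genes in both groups. Of the 82 members, 50 passed the filter at a mean of 1 FPKM (61%), against 51.1% of all listed genes. A mean of at least 10 FPKM was reached by 42 members (51.2%), against 38% of all genes. The 8 members between 1 and 10 FPKM separate them from 30 members between 0 and 1 FPKM, beside which 2 members are listed at 0 in every library. Just inside the filter was yellow-h, with a mean of 1.34 FPKM, and just outside it was CG31997, with a mean of 0.861 FPKM. The median level of the tested members was 51.0 FPKM in knockout and 43.9 FPKM in wild-type cells, against 21.7 FPKM in knockout and 21.6 FPKM in wild-type cells for all tested genes. Each group's median was taken by itself, so the gap between the groups is not the change of a typical member. Gene by gene, the median log2 change of the tested members was 0.07. Summed over all 82 members, chromosome 4 gave 2727, 2560 and 2791 FPKM in knockout libraries, against 2580, 2612 and 2732 FPKM in wild-type libraries. These sums overlap between the groups. Tested members were long, with a median exon length of 4385 nt against 2070 nt for all tested genes and a median gene span of 9221 nt against 2620 nt. They also had more annotated transcripts, a median of 4 against 1, and fewer of them shared their span with another listed gene (8% against 42.2%).

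**Figure D2:**
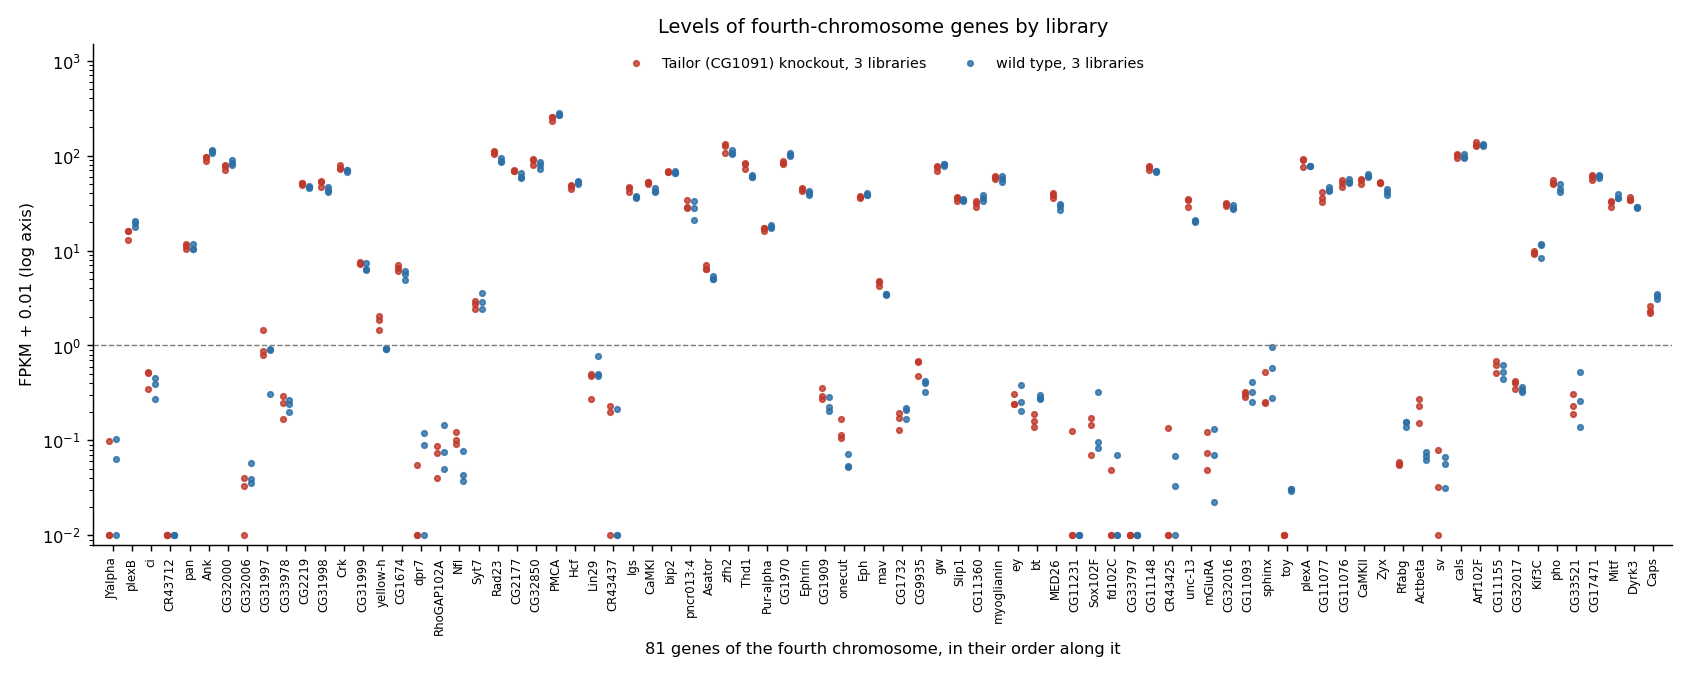
FPKM + 0.01 (log axis) of 81 of the 82 genes in their order along chromosome 4, with 1 point per library; the dashed line marks the filter at 1 FPKM. Expressed genes such as PMCA and zfh2 lie among genes near 0, and the knockout and wild-type points lie close together at the expressed genes.

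The expressed genes included housekeeping, signalling and neuronal genes side by side. PMCA, the plasma membrane calcium pump, had the highest level, at 255.6, 231.4 and 253.4 FPKM in knockout libraries and 270.0, 270.3 and 279.0 FPKM in wild-type libraries. Its knockout libraries all lay below its wild-type libraries. Arf102F, a small GTPase of vesicle traffic, averaged 131.2 ± 6.59 FPKM in knockout and 129.1 ± 3.34 FPKM in wild-type cells (SD, n = 3 each). The homeodomain and zinc finger factor gene zfh2 had 127.6, 105.5 and 131.5 FPKM in knockout libraries and 103.1, 114.3 and 107.4 FPKM in wild-type libraries, with overlap. Ank and Rad23, described below, came next, and then cals, the calsyntenin gene, at 99.0 ± 4.91 FPKM in knockout and 98.5 ± 5.68 FPKM in wild-type cells. PMCA passed the test (log2 change -0.15, limma adjusted p = 0.0135), and it lost its call without wild-type replicate 3 (adjusted p = 0.0513, and up to 0.112 over its alternatives). Quantile normalization ended its call too. Arf102F, zfh2 and cals did not pass, and, when libraries were left out, zfh2 passed only without knockout replicate 2 (log2 change 0.26, limma adjusted p = 0.00131, and up to 0.399 over its alternatives). Arf102F passed only once a trend with exon length was removed.

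Changes on chromosome 4 were frequent and small, in both directions. Of 50 tested members, 30 were called (60%), where 62.1% of all tested genes were, so the share is near the background. The knockout was higher for 18 members (36%) and lower for 12 (24%), where 30.1% of all tested genes were called higher and 32.1% lower. Groups did not overlap for 31 tested members (62%), where 67.3% of all tested genes did not overlap. A call with at least a 1.5-fold change was made for 1 member (2%), unc-13, where 12.6% of all tested genes had one. Yellow-h passed this size too with a pseudocount of 0.1, without knockout replicate 3 and in the authors' deposited table. With the exon length trend removed only yellow-h did, and with a pseudocount of 5 no member did. At least 2-fold changes were called for 0 of 50 members in limma, where 4.01% of all tested genes had one (30 members had an adjusted p under 0.05 at any size). Log2 changes of the tested members ran between -0.35 and 0.65, with an interquartile range of 0.33, against 0.44 for all tested genes. The median absolute log2 change was 0.16 for members and 0.22 for all tested genes. The heterochromatic scaffolds, with 33 tested genes, had an interquartile range of 0.25, and there 1 gene (3.03%) was called with at least a 1.5-fold change.

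**Figure D3:**
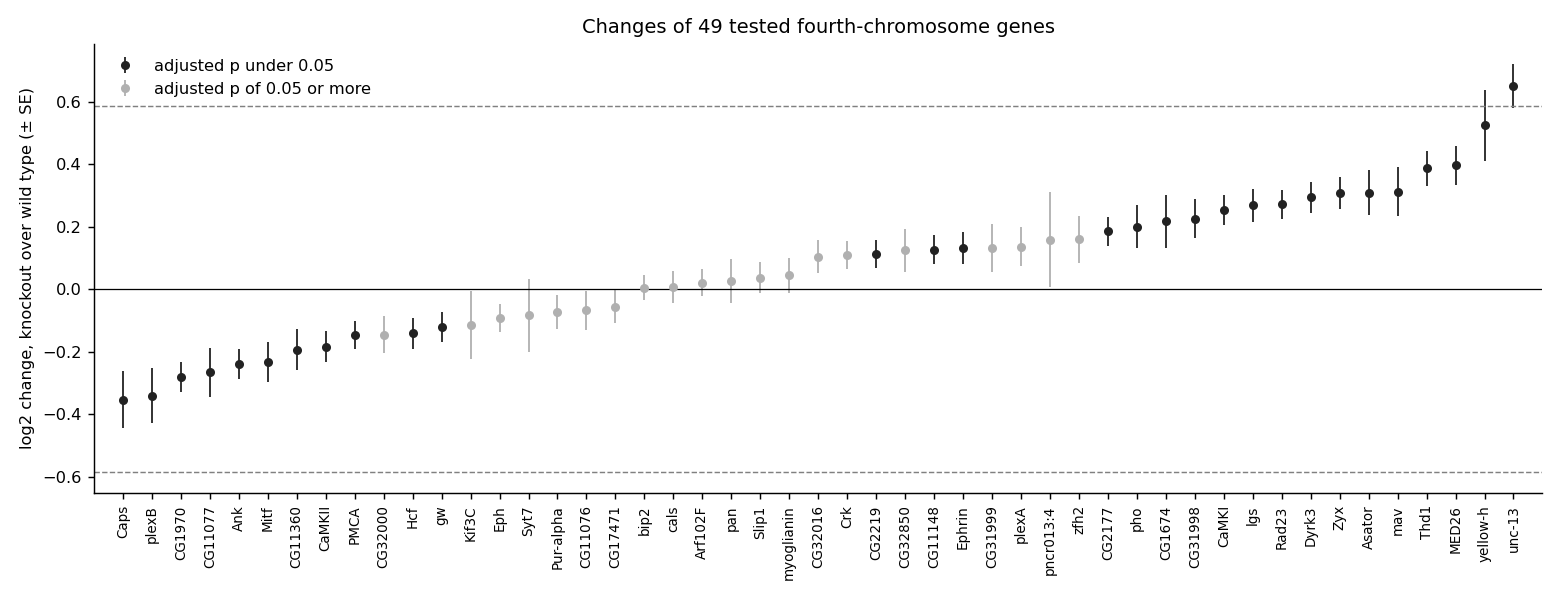
Log2 change, knockout over wild type, with its standard error (bars) for 49 of the 50 tested genes of chromosome 4, in order of size; black points were called and grey points were not, and the dashed lines mark 1.5-fold. Only unc-13 lies beyond the dashed lines, at 0.65.

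Without knockout replicate 2, 20 members were called higher and 9 lower, and without wild-type replicate 3, 17 were called higher and 8 lower. Without wild-type replicate 1, 13 were called higher and 12 lower, so both counts moved with single libraries. In these fits, in the order given, 4437, 4152 and 4147 of all 7259 tested genes were called, against 4509 with all libraries. Of the 30 called members, 20 kept their call in all 6 fits that left out 1 library, 13 of them higher and 7 lower. In the authors' deposited table, made with DESeq, 22 of the 50 members had an adjusted p under 0.05, 11 higher and 11 lower, where 54.8% of the same tested genes did. All 22 were also called here and in the same direction, and in the authors' deposited table all 50 members had the sign found here. The 8 members called here only were CG2219, CG31998, CG2177, CaMKI, Ephrin, CG11360, CG11148 and pho.

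The median log2 change of the tested members was 0.07, against -0.01 for all tested genes. It was 0.02 without wild-type replicate 1 and 0.02 with the exon length trend removed. Set against the wild-type mean, the median member stood at 0.06, -0.01 and 0.12 in the 3 knockout libraries and at -0.03, -0.01 and 0.05 in the 3 wild-type libraries (log2 scale). The groups overlap, since knockout replicate 2 lay within the wild-type range, and the SD over the knockout libraries was 0.0636. The median of 0.07 is thus about the size of that SD. Medians of the large arms lay between -0.02 (2L and 3R) and 0.02 (3L), that of X at -0.01, and that of the heterochromatic scaffolds at -0.06. On those scaffolds 4 of 33 tested genes were called higher and 15 lower, a split unlike the 18 and 12 of chromosome 4; the difference was not tested.

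**Figure D4:**
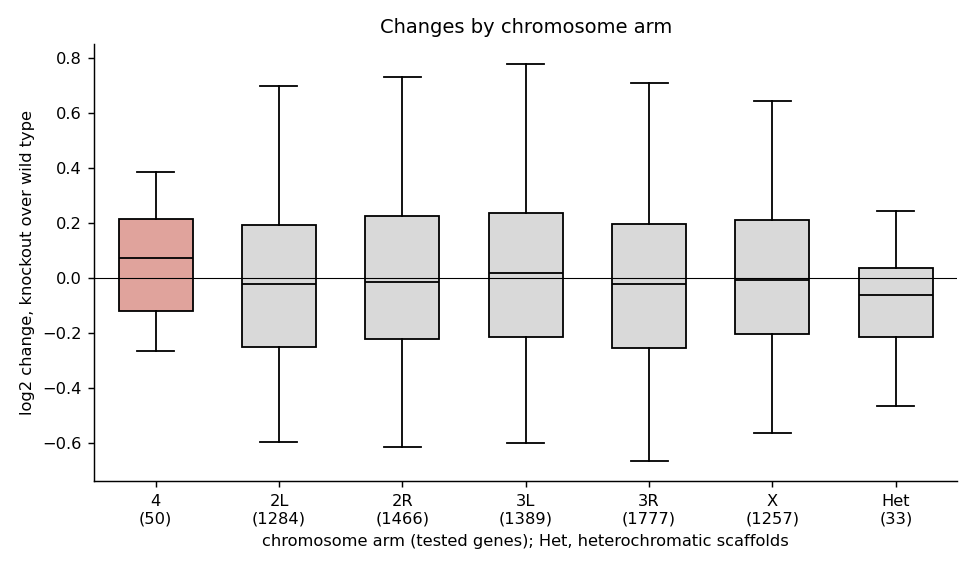
Log2 changes, knockout over wild type, of tested genes by chromosome arm (boxes, quartiles with the median; whiskers, 5th to 95th percentile; numbers of genes in brackets). Chromosome 4, on the left, has a median of 0.07 and a narrower box than the large arms.

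Transcription and chromatin genes on chromosome 4 changed in both directions. Of 19 listed, 9 were tested, with 4 called higher, 2 lower and 3 not called (median log2 change 0.16). MED26, a subunit of the Mediator complex that links transcription factors to RNA polymerase II, had 38.9, 35.7 and 40.2 FPKM in knockout libraries and 26.6, 29.4 and 30.6 FPKM in wild-type libraries. All knockout libraries of MED26 lay above all wild-type ones, and it rose 1.32-fold (log2 change 0.40, SE 0.063, limma adjusted p = 0.000246). Thd1, which encodes a thymine DNA glycosylase, had 82.4, 72.5 and 83.9 FPKM in knockout libraries and 59.4, 59.9 and 62.2 FPKM in wild-type libraries. It rose 1.31-fold (log2 change 0.39, limma adjusted p = 0.000121), and knockout replicate 2 was again the low one. Legless (lgs), the adaptor between Armadillo and Pygopus in Wnt signalling, rose 1.2-fold (46.2, 41.4 and 45.7 FPKM in knockout and 36.0, 37.6 and 36.5 FPKM in wild-type libraries, limma adjusted p = 0.000923). Pan, the TCF factor of the same pathway, had a log2 change of 0.03 and was not called. The Polycomb recruiter gene pho was called higher (log2 change 0.20, limma adjusted p = 0.0246), but its groups overlapped, at 52.5 ± 3.02 FPKM in knockout and 45.6 ± 4.52 FPKM in wild-type cells (SD, n = 3 each; limma). The call of pho was lost without knockout replicate 3, wild-type replicate 1 or wild-type replicate 2. Mitf, a factor that drives lysosomal genes, fell (33.1, 28.5 and 32.2 FPKM in knockout libraries and 35.5, 35.8 and 39.4 FPKM in wild-type libraries, log2 change -0.23, limma adjusted p = 0.00851). Hcf, the host cell factor gene, averaged 47.3 ± 2.61 FPKM in knockout and 52.2 ± 1.37 FPKM in wild-type cells and was called lower (limma adjusted p = 0.0283); that call was lost without knockout replicate 2, wild-type replicate 1 or wild-type replicate 3.

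All 5 genes of the list of RNA, translation and protein turnover were expressed. Of these, 2 were called higher, 1 lower and 2 were not called (median log2 change 0.12). Rad23, a shuttle that carries ubiquitinated proteins to the proteasome, had 110.0, 111.9 and 103.7 FPKM in knockout libraries and 88.6, 86.4 and 94.2 FPKM in wild-type libraries. The groups of Rad23 did not overlap, and it rose 1.21-fold (log2 change 0.27, SE 0.046, limma adjusted p = 0.000412). Gw, the GW182 protein that Argonaute recruits for microRNA silencing, had 76.9, 69.1 and 75.3 FPKM in knockout libraries and 80.8, 82.2 and 77.7 FPKM in wild-type libraries. It passed narrowly as lower (log2 change -0.12, limma adjusted p = 0.0482). CG11148, named Gyf in current annotation, a GYF-domain regulator of translation, passed as higher (78.4, 70.5 and 76.1 FPKM in knockout and 68.5, 67.6 and 69.4 FPKM in wild-type libraries, limma adjusted p = 0.0335). Both are weak calls: gw kept its own only without knockout replicate 1 or wild-type replicate 3 and CG11148 only without knockout replicate 2 among the 6 fits without a library, with adjusted p up to 0.143 and 0.745 over their alternatives. CG32016, now 4E-T, a partner of the cap-binding protein eIF4E, had a log2 change of 0.10 and was not called (adjusted p = 0.108). The same holds for CG32850, now Rnf11, whose log2 change was 0.12 (adjusted p = 0.132; 0.0233 without knockout replicate 2, and up to 0.429 when another library was left out).

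Ligands and receptors were split. Of 10 listed, 6 were tested, with 2 called higher, 1 lower and 3 not called (median log2 change 0.09). The TGF-beta ligand gene mav (maverick) had 4.22, 4.71 and 4.67 FPKM in knockout libraries and 3.37, 3.50 and 3.50 FPKM in wild-type libraries. On the log2(FPKM + 1) scale mav rose 1.24-fold (log2 change 0.31, limma adjusted p = 0.00535), and its ratio of mean FPKM, knockout over wild type, was 1.31. It rests on 216 to 287 effective fragments per knockout library and 196 to 218 per wild-type library. Myoglianin, the other tested ligand of that family, averaged 58.7 ± 2.08 FPKM in knockout and 56.9 ± 4.10 FPKM in wild-type cells, with no call. PlexB, a receptor for semaphorins, had 16.2, 12.8 and 16.1 FPKM in knockout libraries and 17.7, 19.4 and 20.5 FPKM in wild-type libraries, without overlap. PlexB fell 1.27-fold (log2 change -0.34, SE 0.089, limma adjusted p = 0.00626), while its paralog plexA had a log2 change of 0.14 and was not called. PlexA passed only without knockout replicate 2, which had 76.5 FPKM beside 90.8 and 91.7 FPKM in the other knockout libraries. Ephrin was called higher (log2 change 0.13, limma adjusted p = 0.0396) with overlapping groups, and its call held only without knockout replicate 2 or wild-type replicate 3 among the 6 fits without a library. Its receptor gene Eph had a log2 change of -0.09 and was not called, except with the exon length trend removed.

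All 6 kinases and signalling adaptors were tested, with 3 called higher, 1 lower and 2 not called. Dyrk3, a dual-specificity kinase, had 34.5, 34.0 and 36.9 FPKM in knockout libraries and 28.5, 27.8 and 29.0 FPKM in wild-type libraries. It rose 1.23-fold with no overlap (log2 change 0.29, SE 0.049, limma adjusted p = 0.000349). Asator, of the tau-tubulin kinase family, averaged 6.59 ± 0.320 FPKM in knockout and 5.13 ± 0.219 FPKM in wild-type cells and rose 1.24-fold (limma adjusted p = 0.00331); its span overlaps that of pncr013:4, which was not called. Removal of the exon length trend ended the call of Asator (adjusted p = 0.0568, the highest over its alternatives). The calcium and calmodulin-dependent kinase genes went opposite ways. CaMKI had 52.2, 49.7 and 53.2 FPKM in knockout libraries and 41.8, 42.5 and 45.4 FPKM in wild-type libraries, and rose (log2 change 0.25, limma adjusted p = 0.000874) but was not called in the authors' deposited table. CaMKII had 55.6, 50.4 and 56.3 FPKM in knockout libraries and 59.8, 61.5 and 63.3 FPKM in wild-type libraries, and fell (log2 change -0.18, limma adjusted p = 0.0084).

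Genes known for synaptic release changed in both directions. Of 5 listed, 4 were tested, with 1 called higher, 1 lower and 2 not called. Unc-13 (FBgn0025726, chromosome 4, 889296 to 925419, minus strand), which primes synaptic vesicles for fusion, had 34.3, 28.6 and 34.6 FPKM in knockout libraries and 19.8, 20.8 and 20.2 FPKM in wild-type libraries. Its lowest knockout library stood well above its highest wild-type library, and it rose 1.57-fold (log2 change 0.65, SE 0.070, limma adjusted p = 1.42e-05) on 6701 to 7080 effective fragments per knockout and 4077 to 5034 per wild-type library. The antisense gene CR43425, which overlaps it, was listed at no more than 0.124 FPKM in any library. In the authors' deposited table unc-13 had a log2 change of 0.67 after its sign was turned to knockout over wild type. Caps (FBgn0053653, now Cadps, chromosome 4, 1235704 to 1275487, plus strand), which acts in release from dense-core vesicles, had 2.31, 2.17 and 2.60 FPKM in knockout libraries and 3.10, 3.30 and 3.46 FPKM in wild-type libraries. Caps fell 1.28-fold on the log2(FPKM + 1) scale, without overlap (log2 change -0.35, SE 0.091, limma adjusted p = 0.00586). Its ratio of mean FPKM, knockout over wild type, was 0.717. Among the neuron markers elav was called higher (10.5 FPKM in knockout and 8.23 FPKM in wild-type cells, limma adjusted p = 0.00152) and brp lower (5.96 FPKM in knockout and 7.72 FPKM in wild-type cells, adjusted p = 0.0324). The untested marker Syt1 stood at 0.867 FPKM in knockout and 0.233 FPKM in wild-type cells, without overlap. Their part in these changes was not tested.

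Among cytoskeleton, adhesion and traffic genes, 5 of 6 were tested, with 2 called higher, 1 lower and 2 not called. Zyx, encoding zyxin of adhesion sites and actin fibres, had 51.5, 51.3 and 52.3 FPKM in knockout libraries and 38.8, 41.7 and 44.4 FPKM in wild-type libraries. It rose 1.24-fold (log2 change 0.31, SE 0.052, limma adjusted p = 0.00037), and its knockout libraries were nearly equal. Ank, the ankyrin gene, had 97.5, 88.5 and 96.9 FPKM in knockout libraries and 111.9, 107.0 and 115.4 FPKM in wild-type libraries. Ank fell 1.18-fold (log2 change -0.24, limma adjusted p = 0.00127), but 2 of its 6 values, those of knockout replicate 2 and wild-type replicate 3, carry a failed status in the files. CG2219, now Arl4, a small GTPase gene, passed narrowly as higher (limma adjusted p = 0.0439) and kept its call only without knockout replicate 1 or wild-type replicate 3 among those 6 fits. The kinesin gene Kif3C had 9.42, 9.16 and 9.93 FPKM in knockout and 8.27, 11.7 and 11.4 FPKM in wild-type libraries, with wild-type replicate 1 apart; it was called only without that library.

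In the list of metabolism and transport, 5 of 6 genes were tested, with 2 called higher, 2 lower and 1 not called. CG1970, a subunit of respiratory complex I, had 81.2, 83.3 and 88.6 FPKM in knockout libraries and 107.4, 98.6 and 102.0 FPKM in wild-type libraries. It fell 1.21-fold with no overlap (log2 change -0.28, SE 0.047, limma adjusted p = 0.000383). CG2177, a zinc transporter gene of the ZIP family, rose (69.5 ± 1.36 FPKM in knockout and 61.1 ± 3.39 FPKM in wild-type cells, limma adjusted p = 0.00556), although the authors' deposited table gave it an adjusted p of 0.137. Yellow-h, of the Yellow family of secreted proteins, had 1.84, 2.02 and 1.43 FPKM in knockout libraries and 0.899, 0.932 and 0.913 FPKM in wild-type libraries. Yellow-h rose 1.44-fold on the log2(FPKM + 1) scale (log2 change 0.52, limma adjusted p = 0.00201), but it passed the filter only through its knockout level and rests on 26 to 71 effective fragments per library.

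**Figure D5:**
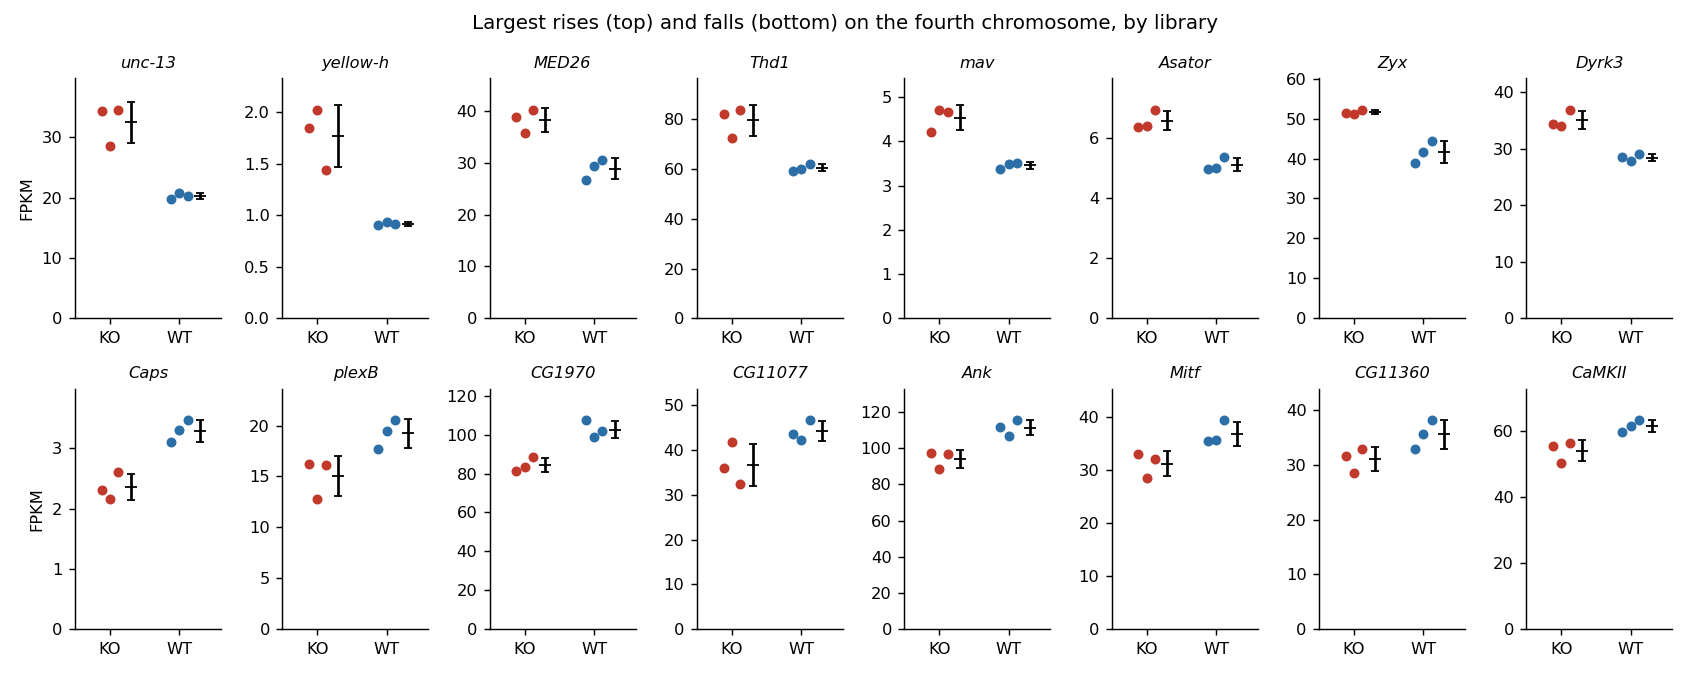
FPKM by library for the 8 largest rises (top row) and the 8 largest falls (bottom row) among called genes of chromosome 4 whose groups do not overlap; points are libraries of knockout (KO, red) and wild-type (WT, blue) cells, and bars give the mean with its SD (n = 3 each). In each panel the groups are apart, as in unc-13, with 34.3, 28.6 and 34.6 FPKM in knockout and 19.8, 20.8 and 20.2 FPKM in wild-type libraries.

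The 25 members in none of these lists held 10 tested genes, with 2 called higher, 3 lower and 5 not called. CG11077, named Mpv17 in current annotation after a mitochondrial membrane protein, had 36.0, 41.8 and 32.5 FPKM in knockout libraries and 43.6, 42.3 and 46.6 FPKM in wild-type libraries. The highest knockout library nearly reached the lowest wild-type library, and the gene fell 1.2-fold (limma adjusted p = 0.0123; 0.0567 without wild-type replicate 3, and up to 0.199 over its alternatives). CG11360, a gene of no stated role here, was called lower (31.0 ± 2.21 FPKM in knockout and 35.6 ± 2.58 FPKM in wild-type cells, limma adjusted p = 0.0248). Leaving out knockout replicate 2, wild-type replicate 2 or wild-type replicate 3 ended that call. CG31998 and CG1674, of no stated role here, were the 2 called higher (51.3 ± 3.93 FPKM in knockout and 43.7 ± 2.60 FPKM in wild-type cells for CG31998, limma adjusted p = 0.00895; 6.55 ± 0.447 FPKM in knockout and 5.51 ± 0.567 FPKM in wild-type cells for CG1674, limma adjusted p = 0.0444). CG31998 lost its call with the exon length trend removed and in the authors' deposited table, and CG1674 without knockout replicate 1 or 2 or wild-type replicate 1 or 3. Bip2, which encodes a TFIID subunit, was nearly level, at 67.1, 66.8 and 68.6 FPKM in knockout libraries and 66.1, 66.2 and 69.5 FPKM in wild-type libraries (log2 change 0.005). Only with the exon length trend removed was bip2 called.

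The 32 members that were not tested stood at or under a mean of 0.861 FPKM, and they include developmental and neuronal genes. Ci, the transcription factor of the Hedgehog pathway, had 0.519, 0.340 and 0.504 FPKM in knockout libraries and 0.260, 0.441 and 0.380 FPKM in wild-type libraries. The eye selector gene ey averaged 0.255 ± 0.0403 FPKM in knockout and 0.271 ± 0.0922 FPKM in wild-type cells. CG31997, CG11155, a glutamate receptor gene, and Lin29, now dati, a zinc finger factor gene, had the highest means of the set. They averaged 1.03, 0.594 and 0.410 FPKM in knockout cells and 0.696, 0.516 and 0.572 FPKM in wild-type cells, with overlapping groups in each. For 7 of the 32 (21.9%), singled out once their values were known, the groups did not overlap, as for 10.5% of all 6951 genes under 1 FPKM. Both shares count genes at 0 in every library, whose groups cannot separate. Among members 2 are such genes, while only 11687 of all 14210 listed genes had any signal, so the shares are not like for like. Onecut, NfI, CG9935 and Actbeta were higher in every knockout library, and bt, Rfabg and toy were lower. Actbeta, an activin-type ligand gene, had 0.262, 0.142 and 0.222 FPKM in knockout libraries and 0.0526, 0.0581 and 0.0651 FPKM in wild-type libraries, on 13 to 19 fragments per knockout and 4 to 6 per wild-type library. Bt, the projectin gene of muscle, had 0.149, 0.127 and 0.179 FPKM in knockout libraries and 0.271, 0.287 and 0.260 FPKM in wild-type libraries, on 83 to 98 fragments per knockout and 160 to 192 per wild-type library. Rfabg, which encodes the lipoprotein apolipophorin of the hemolymph, had 0.0497, 0.0469 and 0.0454 FPKM in knockout libraries and 0.148, 0.146 and 0.127 FPKM in wild-type libraries. Toy was listed at 0 in all knockout libraries and at 0.0193 to 0.0210 FPKM in wild-type libraries, about 1 fragment each. The authors' deposited table called Actbeta and onecut higher (adjusted p = 0.00621 and 0.0291) and bt and Rfabg lower (adjusted p = 1.17e-07 and 0.00032). These 4 are 12.9% of the 31 untested members in that table, where 5.92% of all its genes under 1 FPKM were called. Apart from bt, these genes rest on few fragments. Among the muscle markers Mef2 was called lower (6.74 ± 0.447 FPKM in knockout and 9.16 ± 0.382 FPKM in wild-type cells). Mlc2 averaged 1.02 FPKM in knockout and 0.617 FPKM in wild-type cells, without overlap. The gene up averaged 0.110 FPKM in knockout and 0.0242 FPKM in wild-type cells, also without overlap. It rests on only 2 to 3 fragments per knockout and 0 to 2 per wild-type library. Their part in the level of bt was not tested.

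Of the 32 untested members, 16 lay in runs of 3 or more neighbours, such as CG32006, CG31997 and CG33978, or dpr7, RhoGAP102A and NfI, or CG11231, Sox102F, fd102C and CG33797. Of 49 neighbouring pairs of tested members, 25 had changes of the same sign. The longest run of 1 sign, picked out with the values in view, held 7 genes that were higher in the knockout by any amount: lgs, CaMKI, bip2, pncr013:4, Asator, zfh2 and Thd1, of which 4 were called. Single libraries broke this run. Without wild-type replicate 1, bip2 and pncr013:4 had log2 changes of -0.008 and -0.02. Bip2 was slightly lower too without knockout replicate 3 or wild-type replicate 2. Of 28 tested members among the proximal 41 genes, 11 were called higher (39.3%) and 6 lower (21.4%), and of 22 among the distal 41 genes, 7 were called higher (31.8%) and 6 lower (27.3%). Across the 50 tested members, which share libraries and are not independent, the log2 change had Pearson's r of -0.05 with the start position.

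Because tested members were long, their changes were set beside those of genes of like exon length. Over all tested genes, long transcripts stood higher in the knockout, with a median log2 change of -0.10 below 2000 nt of exon and 0.10 at 6000 nt or more. Below 2000 nt, the 9 tested members had a median of 0.02, with 2 called higher and 2 lower, where all tested genes of that length were called more often lower (1355) than higher (696 of 3308). Between 2000 and 4000 nt, the 13 tested members had a median of 0.13, against 0.03 for all tested genes, with 6 called higher and 1 lower (all tested genes of that length, 33.7% higher and 27.1% lower). Between 4000 and 6000 nt, 13 members had a median of 0.13, against 0.12 for all tested genes, with 7 called higher and 2 lower (all, 46.2% and 19.7%). At 6000 nt or more the 14 members had a median of -0.06, against 0.10, with 3 called higher and 6 lower (21.4% and 42.9%), where all tested genes of that length were called higher in 40.3% and lower in 17.9%. That is the reverse of the split among all tested genes of that length, in 14 members, and the difference was not tested. Among the 6 called lower, PMCA, Hcf, gw and CG11360 lost their call in fits without a library. PlexB and Ank, also called lower, kept their call in all 6 of these fits, though Ank has 2 values of failed status. The 3 called higher, unc-13, Thd1 and Asator, kept their call in all 6 fits without a library. With the exon length trend removed, all 6 called lower kept their call, while Asator lost its own. By level, 5 of 8 members between 1 and 10 FPKM were called (62.5%, against 53.0% of all tested genes at that level), and 15 of 21 between 10 and 50 FPKM (71.4%, against 61.9%). At 50 FPKM or more 10 of 21 were called (47.6%, against 72%), and 0 of 21 were called with at least 1.5-fold in limma, against 12.3%.

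Genes elsewhere that encode the proteins of chromosome 4 and of heterochromatin changed in both directions. All 18 listed were tested, with 4 called higher and 7 lower, where 30.1% of all tested genes were called higher and 32.1% lower. Pof, the chromosome 4 protein itself, had 12.9, 12.7 and 13.6 FPKM in knockout libraries and 17.6, 17.4 and 18.9 FPKM in wild-type libraries. It fell (log2 change -0.43, SE 0.057, limma adjusted p = 6.91e-05), and its span overlaps that of Mmp1. The gene of HP1a had 206.5, 207.9 and 201.0 FPKM in knockout libraries and 259.4, 264.0 and 250.2 FPKM in wild-type libraries, and fell (log2 change -0.33, limma adjusted p = 1.92e-05); its span overlaps that of CG8419. The Eggless partner gene wde, windei, had 3.45, 3.01 and 3.35 FPKM in knockout libraries and 6.79, 6.78 and 6.20 FPKM in wild-type libraries. On the log2(FPKM + 1) scale wde fell 1.78-fold (log2 change -0.83, limma adjusted p = 6.03e-06). Its ratio of mean FPKM, knockout over wild type, was 0.496. Egg itself, named for its place in the background above, averaged 18.5 FPKM in knockout and 21.5 FPKM in wild-type cells and fell as well (log2 change -0.20, limma adjusted p = 0.00524). HP4, an HP1a-associated protein gene, rose to 80.8, 91.6 and 91.7 FPKM in knockout libraries, against 51.9, 46.8 and 49.4 FPKM in wild-type libraries (log2 change 0.82, limma adjusted p = 5.33e-07). HP1b, Su(var)3-9 and HP6 also rose (log2 changes 0.38, 0.40 and 0.43). They are named here with their values known, and Su(var)3-9 overlaps eIF-2gamma. HP6 overlaps dp and rests on 47 to 65 effective fragments per knockout and 42 to 46 per wild-type library. It was not called in the authors' deposited table (adjusted p = 0.0964). Whether these levels bear on chromosome 4 was not tested.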

How the data were processed

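Poly(A) RNA of S2 cells was sequenced from 3 CG1091 knockout and 3 wild-type libraries, grouped by title, and prepared with a directional kit per the labels' protocols. The authors deposited an FPKM value per gene and library, per the file headers in Cufflinks format. Their deposited table of the comparison gives each group's mean normalized count (a signal), a fold ratio, its log2 and p-values, and its columns are those of DESeq, per the file headers. That log2 runs wild type over knockout and its sign was turned. The submitters' processing notes list DESeq 1.10.1, HTSeq 0.6.1p1, Cufflinks 1.3.0, TopHat 1.4.1 and BWA 0.6.1, with no roles. No source used here states the genome build, annotation or strand setting, so values of overlapping genes are uncertain. Starts are counted from 0 in the files, and 1 was added.

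Of 14210 genes, the 7259 averaging 1 FPKM or more were tested with limma 3.58.1 in R 4.3.3 on log2(FPKM + 1), with eBayes in its trend and robust mode and Benjamini-Hochberg adjustment at 0.05. The test was tried on simulated data in which few genes changed and noise was independent between genes. That is unlike these data, so the trial does not cover deviations that genes of a library share. Effective fragments were computed from each FPKM and its upper confidence bound as (2 × FPKM / (bound − FPKM)) squared. Exon lengths came from Ensembl's BDGP6 annotation by gene identifier (79 of 82 members). Intervals and fragment numbers cover counting error only.

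Members and lists were chosen with earlier results of these data known. Named were the 8 largest rises and falls among called members whose groups do not overlap, up to 3 called members per list by smallest p, the 6 highest tested and 3 highest untested members, any 2-fold change, and 4 called regulators by smallest p with any changed 1.5-fold. Pan, plexA, myoglianin, Eph, pho, Hcf, CG32016, CG32850, Kif3C, CG31998, CG1674, bip2, ci, ey and egg were added for their roles, with values known. The values of 1 called member are not reported here. Alternatives changed the pseudocount (0.1 or 5), the filter (none, or 5 FPKM), the scaling (by medians or quantiles), the eBayes mode and the libraries (each left out), added a replicate block, kept genes of status OK or members without overlap, and read the authors' deposited table. Removal of an exon length trend was chosen after seeing the data. Plots were made in Python 3.11.15 using matplotlib 3.10.9.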

Additional observations from a re-analysis of the deposited data

How the results depend on the processing

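No alternative changed the sign of any of the 30 called members. Of these, 16 kept their call in every alternative that tested them, 9 higher and 7 lower. The number of members called was 22 to 30 over all alternatives. In the authors' deposited table the members called higher numbered 11, against 18 here, which moved the share of higher calls to 11 of 22; the cause was not tested. The number called lower ran from 8 to 12 when 1 library was left out, and the number called higher from 13 to 20. Of all 7259 tested genes, 4004 to 4437 were called in those fits. Without a filter 25 of 80 members were called, against 4541 of all 11687 genes with any signal. The median log2 change of the tested members was 0.02 after removal of the exon length trend, with 15 called higher and 13 lower. Of all 6911 tested genes with an exon length, 4210 were called after that removal. When 1 library was left out, the median of the members was 0.02 to 0.11. Over all tested genes, deviations of same-numbered libraries had correlations of -0.05, 0.003 and -0.03 for replicates 1, 2 and 3. With 3 libraries per group this cannot show whether they were paired, and the labels state no pairing. With the replicate block, 29 members were called, 17 higher and 12 lower, and 4393 of all tested genes, against 4509 without it. Depth limits the 32 untested members, many of which rest on under 20 fragments per library.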
